A study of Mus musculus with 39 samples.

Results

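The surrogate light chain genes Igll1, Vpreb1 and Vpreb3 were followed across 4 normal stages of mouse B-cell development and in leukemic pre-B cells. They were chosen by name, and every array feature (probe set) annotated to exactly 1 of these symbols was kept, which gave 4 of the 22626 probe sets other than controls, for 3 of the 12393 genes with a probe set of their own. Igll1 had probe sets 1420176_x_at and 1420177_at, Vpreb1 had 1449869_at and Vpreb3 had 1422921_at. A further probe set, 1422416_s_at, was annotated to both Vpreb1 and Vpreb2, is described separately and was assigned to neither gene. The levels of different probe sets were not set against each other, since each has its own response.

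RNA from sorted mouse bone marrow cells was measured on 39 Affymetrix arrays, as 1 intensity per probe set and array. The normal cells came from adult mice and were all B220+. Pro-B cells were sorted as CD43+ without IgM or IgD and gave 6 arrays. Pre-B cells lacked CD43, IgM and IgD (8 arrays), immature B cells had gained IgM (6 arrays), and mature B cells carried both IgM and IgD (3 arrays). A further 16 arrays held leukemic cells from MLL-AF4 mice, sorted with the pre-B gate. Of these mice, 5 (A992, A1322, A1507, 270 and A46) had become leukemic after pIpC, a synthetic RNA that triggers interferon. Leukemic array 116 is labelled leukemic pre-B, while its description names an Mll-AF4stop knock-in mouse and no leukemia. The strain and what drives the knock-in allele are not given in the sources used here. No label ties a normal array to an animal, so p-values measure the spread between arrays, which may be technical.

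In early B-cell development the immunoglobulin heavy chain is made before any conventional light chain. Vpreb1 and its near copy Vpreb2 encode a variable-like part and Igll1 (lambda 5) a constant-like part of a stand-in, the surrogate light chain, which pairs with the heavy chain and the signal chains Cd79a and Cd79b as the pre-B-cell receptor. Signals from this receptor drive pre-B-cell division and then help to shut off the surrogate light chain genes. Vpreb3 encodes a related protein that associates with heavy chains inside the cell and is not part of the surface receptor. Ebf1 and the E-box protein Tcf3 are known to act on the Igll1 and Vpreb1 promoters, and Ikaros (Ikzf1) is known to bind there too.

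The 250 bases before the annotated start of each gene are shown because the genes fall into different patterns below, with Igll1 1420176_x_at and Vpreb1 alike and Vpreb3 apart. They are RefSeq sequences of mouse build GRCm38.p6, in the direction of the gene, and all 3 members matched by symbol. Igll1 lies on the minus strand at chr16:16863986-16864235, Vpreb1 on the minus strand at chr16:16869256-16869505 and Vpreb3 on the plus strand at chr10:75948050-75948299. Capitals mark matches, on either strand, to the Ebf1 half-site motif CCCNNGGG, the E-box CAGNTG, the Ikaros core GGGAA and the octamer ATTTGCAT.
Igll1: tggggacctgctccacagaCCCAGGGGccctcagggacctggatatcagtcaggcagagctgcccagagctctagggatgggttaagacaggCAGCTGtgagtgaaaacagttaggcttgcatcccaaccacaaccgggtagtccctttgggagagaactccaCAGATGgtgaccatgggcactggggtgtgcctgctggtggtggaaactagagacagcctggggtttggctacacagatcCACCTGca
Vpreb1: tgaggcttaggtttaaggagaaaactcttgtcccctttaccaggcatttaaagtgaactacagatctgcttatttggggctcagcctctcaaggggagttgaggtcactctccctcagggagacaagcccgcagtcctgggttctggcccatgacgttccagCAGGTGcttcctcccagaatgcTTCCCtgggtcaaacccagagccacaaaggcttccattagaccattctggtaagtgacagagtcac
Vpreb3: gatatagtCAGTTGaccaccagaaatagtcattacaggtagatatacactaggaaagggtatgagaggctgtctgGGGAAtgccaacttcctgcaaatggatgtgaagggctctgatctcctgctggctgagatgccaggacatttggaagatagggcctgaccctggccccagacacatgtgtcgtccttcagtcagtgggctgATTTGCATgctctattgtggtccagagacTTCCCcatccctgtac
The Igll1 window held 1 match to the Ebf1 half-site motif and 3 E-box matches, and the Vpreb1 window held 1 E-box and 1 Ikaros match. The Vpreb3 window held 1 E-box, 2 Ikaros matches and 1 octamer, the element read by Oct1, Oct2 and their coactivator Obf1. Among 32851 promoter windows of the same length, 11.8% held the Ebf1 half-site motif, 44.8% the E-box, 56.2% the Ikaros core and 1.6% the octamer. The matched motifs did not overlap each other. A match is a description of these letters and not a bound site. In sequence upstream of Vpreb1 and Vpreb2, 153 of 156 aligned bases were identical (98.1%). The aligned stretch does not lie wholly within 250-base windows of both genes.

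Some arrays stood apart. On leukemic array 122 all 4 member probe sets were below every other leukemic array, so the leukemic results are given for all 16 arrays and, for the members and for lists whose counts change, also without it. The r with the mean of the other leukemic arrays was 0.945 for array 122 and 0.929 for array 226. The choice was made after the members' own values were seen, so member calls gained without array 122 are no independent support. The same array had Ebf1 at 7.27 (10.95 to 11.56 on the other 15 leukemic arrays, log2) and Il7r at 8.58 (11.01 to 12.13). Its granule genes Mpo and Ctsg were at 12.03 (3.67 to 11.14 on the others) and 12.35 (3.49 to 10.27). These genes were chosen after their values were seen. Elane at 8.34 (3.66 to 8.15) and Prtn3 at 10.70 (3.69 to 10.22) were also above the others. The granule genes Camp at 8.78 (5.42 to 9.64), Ngp, Ltf and Lcn2 lay within the range of the others. So did the early B genes Cd93 at 12.10 (11.28 to 12.30) and Dntt at 6.25 (3.91 to 10.95). The mean of the 15 myeloid markers measured was 9.87 on array 122 and 4.97 to 8.70 on the others. Immature B arrays 2 and 3 were the most alike pair of arrays within any group, with a median absolute difference of 0.119 log2 against 0.152 for the next pair. The accessions form 2 runs of 22 and 17 arrays, with no label that says what they are, and all mature B arrays lie in the second. The 3' minus 5' difference of the beta-actin controls was 1.175 to 1.464 log2 in run 1 and 0.598 to 1.122 in run 2. That of the Gapdh controls went the other way, with 0.81 to 1.264 in run 1 and 1.016 to 1.682 in run 2. Of the sort markers, Spn (CD43) fell by 1.20 from pro-B to pre-B, and Ighm rose by 0.64 from pre-B to immature B cells, both called by limma. Ighd had no probe set of its own.

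Over the normal stages Igll1 1420176_x_at and Vpreb1 went down together and Vpreb3 rose and then fell. Igll1 1420176_x_at averaged 11.27 ± 0.30 on pro-B, 10.06 ± 0.52 on pre-B, 7.54 ± 1.66 on immature B and 6.53 ± 0.65 on mature B arrays (log2 intensity, SD, n = 6, 8, 6 and 3). Vpreb1 averaged 12.73 ± 0.15, 11.73 ± 0.35, 9.40 ± 1.60 and 8.01 ± 0.75 in the same order. Both were therefore highest in pro-B and lowest in mature B cells. Vpreb3 averaged 11.40 ± 0.61, 12.41 ± 0.25, 12.48 ± 0.21 and 11.21 ± 0.56, so that it was highest in pre-B and immature B cells. None of these means lay near background, set at 3.87 log2, the 20th percentile of all probe set means.

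**Figure D1:**
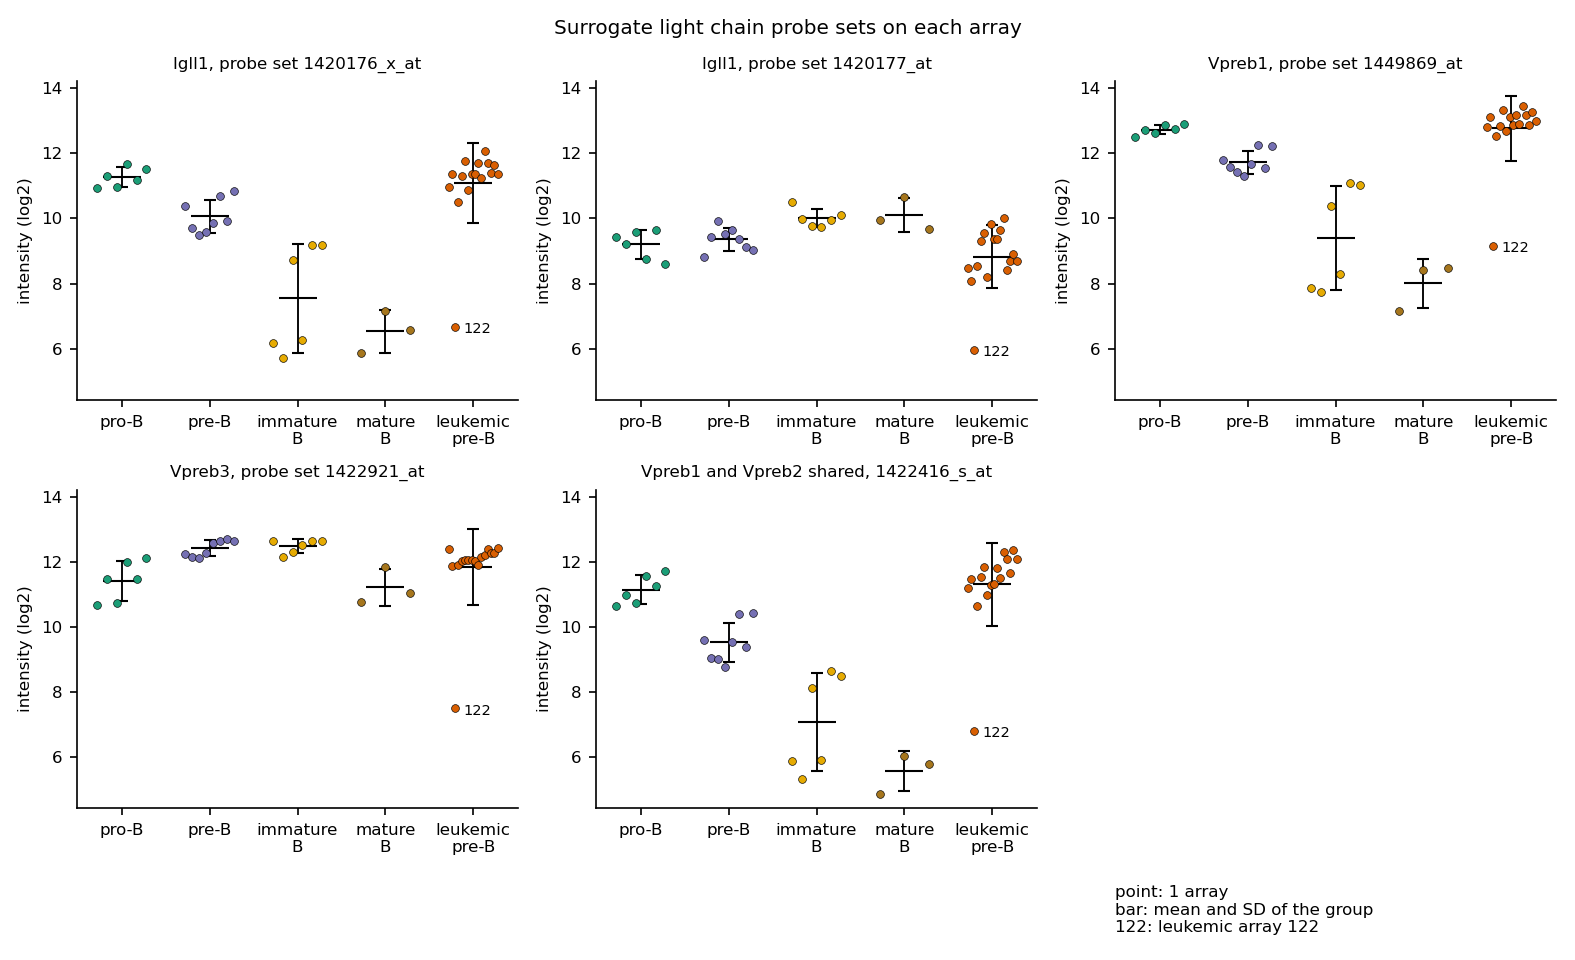
Log2 intensity of the 5 probe sets on each of the 39 arrays, in 5 panels by group, with bars for the group mean and SD. Igll1 1420176_x_at, Vpreb1 and the probe set shared with Vpreb2 go down from pro-B to mature B, Vpreb3 peaks in pre-B and immature B, and leukemic array 122 is the lowest leukemic point in every panel.

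The step from pro-B to pre-B cells was the first normal comparison. Igll1 1420176_x_at ran from 10.94 to 11.69 on pro-B arrays with a median of 11.24, and from 9.48 to 10.85 on pre-B arrays with a median of 9.90. The groups did not overlap. The difference was -1.21 (SE 0.46, 2.31-fold lower), and limma over the 23 normal arrays did not call it (adjusted p = 0.0517). Vpreb1 ran from 12.52 to 12.92 on pro-B and from 11.30 to 12.27 on pre-B arrays, with medians of 12.73 and 11.63. Again no array overlapped, and the difference of -1.0 (SE 0.43, 2.0-fold lower) was not called (adjusted p = 0.0786). With only these 2 stages in the fit, chosen after the data were seen, both were called (adjusted p = 0.000499 for Igll1 and 5.07e-05 for Vpreb1). The fit of 23 arrays called 30.3% of all probe sets in this step. The share called in the fit of 2 stages is not given, so these calls are not shown to be particular to the members. The share of all probe sets whose arrays did not overlap is not given, for this or any later comparison. Separation of arrays is therefore only a description of the members.

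Vpreb3 went the other way at this step. It ran from 10.68 to 12.10 on pro-B arrays (median 11.46) and from 12.12 to 12.70 on pre-B arrays (median 12.42), so that every pre-B array lay above every pro-B array. The rise was 1.01 (SE 0.20, 2.01-fold, adjusted p = 0.000531 by limma), and its call was lost in the fit of all 39 arrays (adjusted p = 0.0872). Igll1 1420177_at overlapped between the stages and differed by 0.15 (95% interval -0.25 to 0.56). Of the 4 member probe sets, 1 was called, against 30.3% of all probe sets called in this comparison. The difference between Vpreb1 and Vpreb3 shifted by -2.01 between the stages, lower on 8 of 8 pre-B arrays than on any pro-B array (exact permutation test, two-sided, p = 0.000666, the smallest these groups allow, adjusted p = 0.0020 over 30 such tests).

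The pro-B arrays also carried more signal of other cell types at this step. Of all genes 15.5% were lower in pre-B. Of 14 T and NK markers measured, 13 were lower in pre-B, with list means of 7.41 to 9.09 on pro-B and 5.32 to 5.79 on pre-B arrays. The means of 8 plasmacytoid dendritic markers were 10.73 to 12.08 and 7.37 to 9.57, with 7 of 8 lower, and those of 15 myeloid markers 9.66 to 10.44 and 7.41 to 9.54, with 12 of 15 lower. Among these markers Itgam lay under the background limit in pro-B cells, at 3.73. Their part in the member differences was not tested. In RNA of sorted populations, fewer cells of a type and less RNA per cell cannot be told apart.

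From pre-B to immature B cells Igll1 1420176_x_at and Vpreb1 fell and Vpreb3 stayed high. Igll1 1420176_x_at was at 5.70 to 9.19 on the immature B arrays (median 7.49) and fell by 2.52 (SE 0.46, 5.75-fold, adjusted p = 0.000286 by limma). Vpreb1 was at 7.74 to 11.09 (median 9.34) and fell by 2.33 (SE 0.43, 5.02-fold, adjusted p = 0.00032). In both cases 6 of 6 immature B arrays lay below every pre-B array. Within the accession runs the fall of Igll1 1420176_x_at was -2.92 in run 1 and -2.13 in run 2, and that of Vpreb1 was -2.87 and -1.79, all called. Vpreb3 was at 12.14 to 12.64 on immature B arrays (median 12.58), and its difference of 0.07 had a 95% interval of -0.35 to 0.48. Of the 4 member probe sets 3 were called, Igll1 1420177_at among them against 18% of all probe sets. The shift of Vpreb1 relative to Vpreb3 was -2.39, with 6 of 6 immature B arrays below every pre-B array (exact permutation p = 0.000666, adjusted p = 0.0020).

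The immature B arrays were not alike. On arrays 1 to 6 in turn Vpreb1 was at 8.30, 11.09, 11.04, 7.87, 7.74 and 10.37. Igll1 1420176_x_at was at 6.25, 9.19, 9.19, 6.18, 5.70 and 8.73, high and low on the same arrays as Vpreb1. Vpreb3 was at 12.53, 12.64, 12.64, 12.63, 12.14 and 12.29. The wide spread was thus in Igll1 1420176_x_at and Vpreb1, with SDs of 1.66 and 1.60, and not in Vpreb3, with 0.21. In the same array order Dntt, which adds nucleotides at V(D)J joins, was at 4.81, 7.45, 7.16, 5.87, 5.22 and 7.50. Csf1r, the macrophage growth factor receptor, was at 6.53, 11.48, 11.41, 5.34, 6.59 and 11.17. Both were chosen after their values were seen, and both were highest on arrays 2, 3 and 6, as Vpreb1 was. The mean of the 8 plasmacytoid dendritic markers was 8.25, 9.27, 9.32, 7.89, 7.93 and 9.11, and that of the 6 plasma cell markers 8.90, 10.23, 10.21, 8.15, 8.86 and 9.94. The mean of the 15 myeloid markers was 9.70, 10.35, 10.40, 8.39, 9.27 and 9.96, and that of the 7 erythroid markers 6.48, 7.36, 7.39, 6.14, 6.51 and 7.32. These 4 means were also highest on arrays 2, 3 and 6. So was the mean of the 13 other early B-stage genes, at 7.31, 7.98, 8.0, 7.73, 7.35 and 8.01, a list that holds Dntt. That of the 14 T and NK markers, at 4.62, 4.82, 4.83, 4.78, 4.68 and 5.01, was highest there too. The mean of the 17 cell cycle genes spanned 8.16 to 9.36. Their part in the spread was not tested. With arrays 2 and 3 averaged and counted as 1, the falls were -2.85 for Igll1 1420176_x_at and -2.66 for Vpreb1, and both stayed called.

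**Figure D2:**
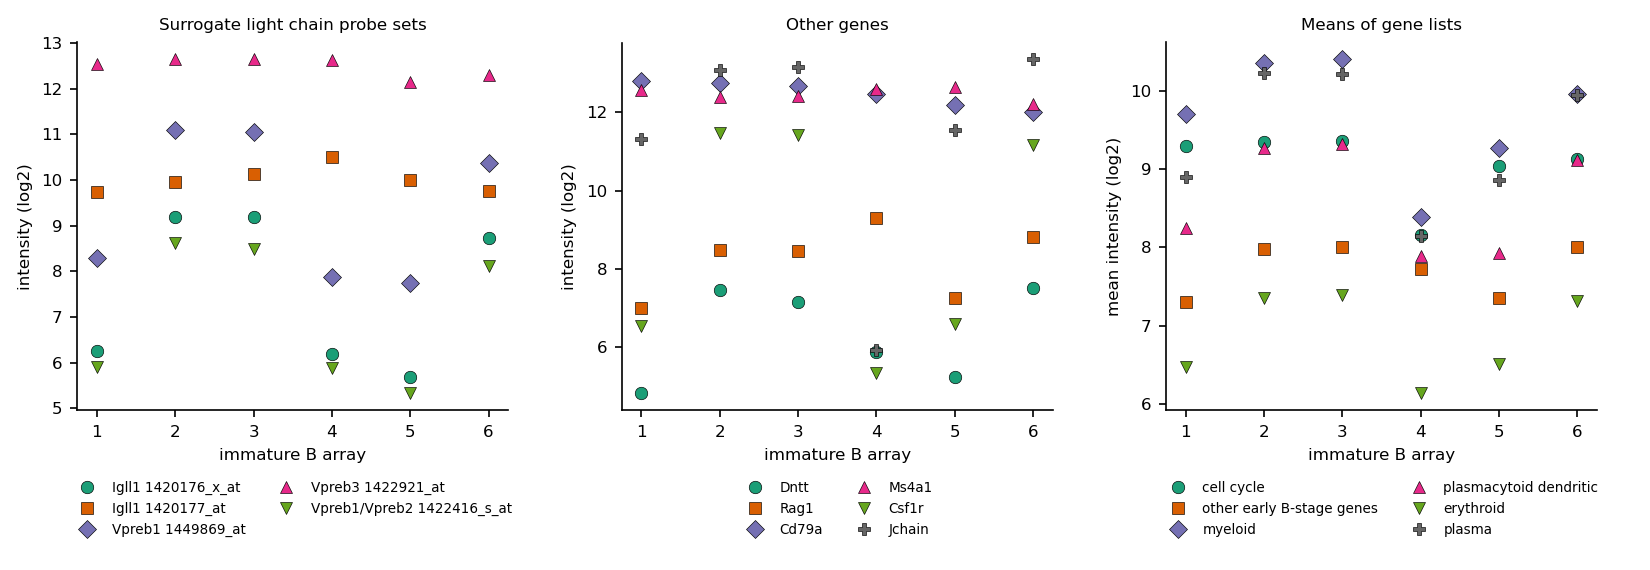
Log2 intensity on the 6 immature B arrays (x axis) of the 5 probe sets (left), 6 other genes chosen after their values were seen (middle) and the means of 6 gene lists (right). Igll1 1420176_x_at, Vpreb1 and the shared probe set are higher on arrays 2, 3 and 6, as are Dntt, Csf1r and Jchain and the early B-stage, myeloid, plasma, plasmacytoid dendritic and erythroid means, while Vpreb3 varies between 12.14 and 12.64.

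From immature to mature B cells Vpreb3 fell and the other member probe sets were not called. Vpreb3 was at 10.75, 11.83 and 11.04 on the 3 mature B arrays, below all 6 immature B arrays, and fell by 1.27 (SE 0.26, 2.41-fold, adjusted p = 0.00417 by limma). Without mature B array 1 the call was lost (highest adjusted p = 0.0716 over the arrays left out). Vpreb1 was at 7.14, 8.40 and 8.47 on the mature B arrays, within the range of the immature B arrays except for 7.14. Its difference of -1.40 (95% interval -2.57 to -0.23) was not called (adjusted p = 0.193). Igll1 1420176_x_at was at 5.86, 7.16 and 6.57, and its difference of -1.01 (95% interval -2.27 to 0.24) was not called either. Of the 4 member probe sets 1 was called, against 4.78% of all probe sets. With 3 against 6 arrays the exact permutation test cannot give a p under 0.0238, and none of its 6 tests on member pairs was called in this step after adjustment.

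Comparisons of stages that are not neighbours gave wider differences. Between pro-B and mature B cells Igll1 1420176_x_at fell by 4.74 (26.7-fold) and Vpreb1 by 4.73 (26.5-fold), while Vpreb3 differed by -0.20 (95% interval -0.74 to 0.35), where 26.4% of all probe sets were called. Between pro-B and immature B cells the difference was -3.73 for Igll1 1420176_x_at, -3.33 for Vpreb1 and 1.07 for Vpreb3, all called (24.3% of all probe sets). Between pre-B and mature B cells the differences were -3.54, -3.73 and -1.21 in the same order, all called (22.8% of all probe sets). The means of Igll1 1420176_x_at and Vpreb1, from high to low, followed the order of development. Igll1 1420177_at rose in each of these 3 comparisons, by 0.90 from pro-B to mature B (adjusted p = 0.011), by 0.80 from pro-B to immature B (adjusted p = 0.00589) and by 0.75 from pre-B to mature B (adjusted p = 0.0287). The neighbours at both ends of the order of Igll1 1420176_x_at and Vpreb1, pro-B with pre-B and immature with mature B, did not pass the test. For Vpreb3 the order was immature B, pre-B, pro-B and mature B, where immature B with pre-B and pro-B with mature B were the neighbours that did not differ beyond their spread.

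The probe sets of Igll1 disagreed. Igll1 1420177_at averaged 9.20 ± 0.44 on pro-B, 9.36 ± 0.36 on pre-B, 10.01 ± 0.28 on immature B, 10.11 ± 0.51 on mature B and 8.82 ± 0.97 on leukemic arrays (SD), an order almost the reverse of 1420176_x_at. It rose from pre-B to immature B cells by 0.65 (SE 0.20, 1.57-fold, adjusted p = 0.0212 by limma), from 8.81 to 9.93 on pre-B arrays (median 9.39) to 9.73 to 10.49 on immature B arrays (median 9.97). In that step 4 of 6 immature B arrays lay above every pre-B array, and the call was lost without immature B array 4 (0.55, adjusted p = 0.0537) and within either accession run alone. Over the 23 normal arrays the r between the probe sets was -0.71, given as a description of arrays that share these stages. The per-array difference, 1420176_x_at minus 1420177_at, averaged 2.06 ± 0.72 on pro-B, 0.71 ± 0.81 on pre-B, -2.47 ± 1.74 on immature B and -3.58 ± 0.49 on mature B arrays (SD). It shifted by -1.36 from pro-B to pre-B (exact permutation p = 0.00999, adjusted p = 0.0231) and by -3.17 from pre-B to immature B (p = 0.000666, adjusted p = 0.0020), with 6 of 6 immature B arrays below every pre-B array. The shift of -1.11 from immature to mature B did not pass (exact permutation p = 0.429). Within each accession run these shifts kept their sign. With 3 or 4 arrays a group the exact permutation test cannot give a p under 0.05 in the normal steps. That none passed within a run therefore decides nothing. Where in the Igll1 transcript each probe set lies was not analysed here, so no direction for Igll1 rests on both. The direction of Igll1 1420176_x_at was shared by Vpreb1, with r = 0.99 between them over the 23 normal arrays.

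**Figure D3:**
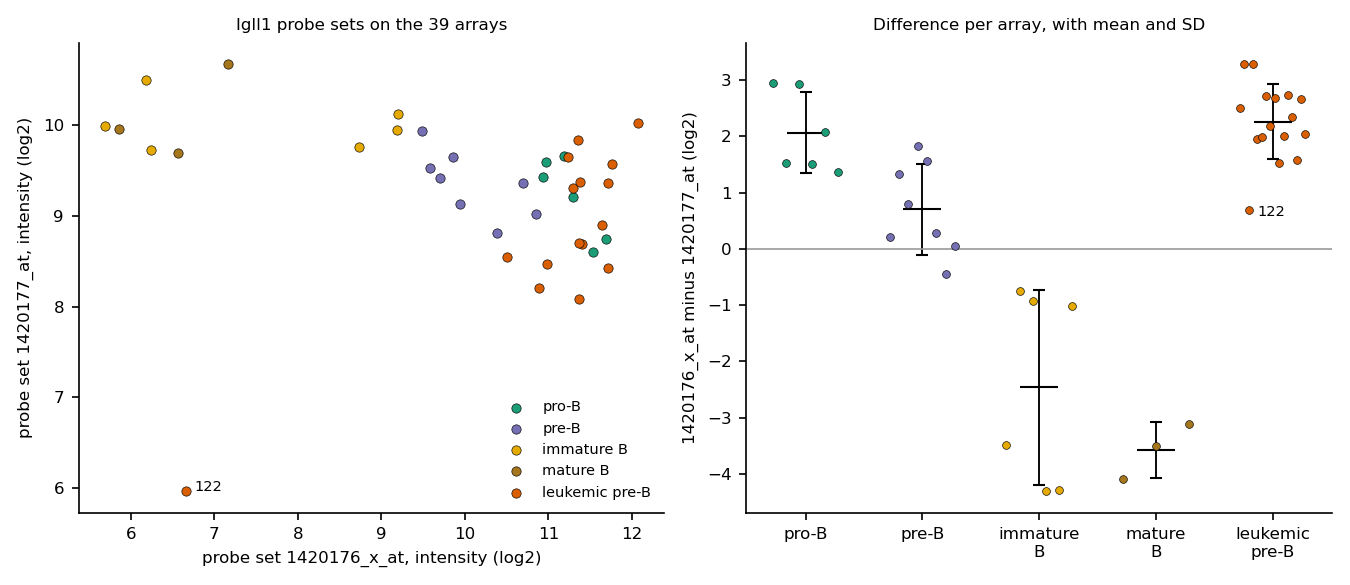
Left, log2 intensity of the Igll1 probe sets against each other on the 39 arrays, coloured by group. Right, the difference 1420176_x_at minus 1420177_at on each array by group with the mean and SD, which lies between 1.38 and 2.94 on pro-B arrays and below 0 on every immature and mature B array.

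The probe set 1422416_s_at, shared by Vpreb1 and Vpreb2, behaved like Vpreb1 1449869_at. It averaged 11.14 ± 0.43 on pro-B, 9.51 ± 0.61 on pre-B, 7.06 ± 1.51 on immature B, 5.55 ± 0.61 on mature B and 11.30 ± 1.29 on leukemic arrays (log2, SD). Its difference was -1.63 from pro-B to pre-B (adjusted p = 0.00881 by limma) and -2.46 from pre-B to immature B (adjusted p = 0.000248). Against normal pre-B it was 1.78 higher on the leukemic arrays (SE 0.45, adjusted p = 0.00656), with 15 of 16 arrays above every pre-B array, and 2.08 higher without array 122. The call held in 24 of 24 fits that left out 1 array and was lost within run 1 (1.95, adjusted p = 0.0825) and without the pIpC arrays (1.46). With near-identical copies, its signal cannot be divided between Vpreb1 and Vpreb2.

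The leukemic cells were then set against normal pre-B cells, which were sorted by the same gate. Vpreb1 ran from 9.16 to 13.45 on the leukemic arrays (median 12.95), and 15 of 16 lay above every normal pre-B array. It was 1.04 higher (SE 0.34, 2.06-fold, adjusted p = 0.0365 by limma). Without array 122, in a fit that called 16.7% of all probe sets, the difference was 1.28 (SE 0.12, adjusted p = 3.96e-08). The call was lost in 10 of 24 fits that left out 1 array (adjusted p up to 0.075), namely without pre-B array 1, 3, 5, 6, 7 or 8 or leukemic array A992, A1322, 224 or 270, so that with array 122 present the call sits at the threshold. Igll1 1420176_x_at ran from 6.66 to 12.07 (median 11.37), with 14 of 16 arrays above every pre-B array. It was 1.02 higher (SE 0.43, adjusted p = 0.116) and not called, and 1.32 higher without array 122 (SE 0.18, adjusted p = 1.02e-05). Within run 1, which holds array 122, the differences were 1.14 for Vpreb1 and 1.15 for Igll1 1420176_x_at, neither called, and within run 2 they were 1.15 and 1.20, both called.

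Vpreb3 and the second Igll1 probe set were not above normal pre-B. Vpreb3 ran from 7.49 to 12.43 on the leukemic arrays (median 12.06), with 9 of 16 below every pre-B array, and differed by -0.57 (SE 0.39, adjusted p = 0.397). Without array 122 it was 0.28 lower (-0.28, SE 0.09, adjusted p = 0.0293), where 16.7% of all probe sets were called. Igll1 1420177_at ran from 5.96 to 10.02 (median 8.80) and differed by -0.54 (95% interval -1.23 to 0.15), or by -0.35 without array 122 (adjusted p = 0.361). Of the 4 member probe sets 1 was called, against 15.6% of all probe sets. Relative to Vpreb3, Vpreb1 shifted by 1.61 and Igll1 1420176_x_at by 1.59, each higher on 16 of 16 leukemic arrays than on any normal pre-B array, array 122 included (exact permutation p = 2.72e-06, the smallest these groups allow, adjusted p = 4.08e-05). Igll1 1420176_x_at and Vpreb1 did not shift against each other, with a difference of -0.02 (adjusted p = 0.93) that turned to 0.03 without array 122. The Igll1 probe sets shifted by 1.56 against each other (exact permutation p = 0.000169, adjusted p = 0.00126). Some markers of other cell types were lower on the leukemic arrays. Of 15 myeloid markers 6 fell and 0 rose (median -1.46, list means 4.97 to 9.87 against 7.41 to 9.54 on pre-B arrays). Of 8 plasmacytoid dendritic markers 4 fell and 0 rose (median -0.84, 6.35 to 9.72 against 7.37 to 9.57). The other lists had medians near 0. There 2 of 14 T and NK markers (median 0.02), 1 of 7 erythroid (-0.07) and 2 of 6 plasma cell markers (0.01) fell and 0 rose. Of all genes 7.56% fell. Without array 122 8 of 15 myeloid and 4 of 8 plasmacytoid dendritic markers fell, and 8.31% of all genes. The part of these markers in the member differences was not tested.

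Against normal pro-B cells 0 of the 4 member probe sets were called by limma, where 14.5% of all probe sets were. None had an unadjusted p under 0.05, and in a fit of all 39 arrays none was called either. The differences were -0.18 for Igll1 1420176_x_at (95% interval -1.17 to 0.81), -0.39 for 1420177_at (-1.19 to 0.42), 0.04 for Vpreb1 (-0.75 to 0.83) and 0.44 for Vpreb3 (-0.53 to 1.41). Without array 122 Vpreb3 was 0.73 higher than in pro-B (SE 0.16, adjusted p = 0.00278), Vpreb1 0.28 (adjusted p = 0.0588) and Igll1 1420176_x_at 0.11 (adjusted p = 0.658). That fit called 20.2% of all probe sets. The leukemic levels of Igll1 1420176_x_at and Vpreb1 were thus next to those of pro-B in the order of groups, and that of Vpreb3 lay between pro-B and pre-B. Relative to Vpreb3, Igll1 1420176_x_at shifted by -0.62 from pro-B (exact permutation p = 0.00214, adjusted p = 0.00585). Against pro-B, 10 of 14 T and NK markers (list means 4.48 to 6.65 on leukemic arrays), 8 of 8 plasmacytoid dendritic markers (6.35 to 9.72) and 9 of 15 myeloid markers (4.97 to 9.87, against 9.66 to 10.44 on pro-B arrays) fell and 0 rose. Of all genes 7.5% fell. Without array 122 14 of 15 myeloid markers and 9.63% of all genes fell. Their part in the comparison was not tested.

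Against the IgM-positive stages the leukemic cells were higher in Igll1 1420176_x_at and Vpreb1. The differences from immature B cells were 3.54 (11.7-fold) and 3.37 (10.3-fold), both called, with 15 of 16 leukemic arrays above every immature B array for each. In that comparison Igll1 1420177_at was 1.19 lower (-1.19, adjusted p = 0.0236), Vpreb3 was not called (-0.63), and 24.3% of all probe sets were called. Without array 122 Vpreb3 was called at -0.34, and the others were 3.84 for Igll1 1420176_x_at, 3.61 for Vpreb1 and -1.0 for Igll1 1420177_at. That fit called 26.2% of all probe sets. From mature B cells the differences were 4.56 (23.5-fold) and 4.77 (27.2-fold), both called, where 19.2% of all probe sets were. Without array 122 they were 4.85 and 5.01, and Vpreb3, not called at 0.64 with all arrays, was 0.93 higher and called, as was Igll1 1420177_at at -1.10. That fit called 20.9% of all probe sets. All of these comparisons use the same 16 leukemic arrays.

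Leukemias that arose after pIpC were compared with the others. Vpreb1 was at 12.90 to 13.45 on the 5 pIpC arrays and 9.16 to 13.35 on the other 11, and Igll1 1420176_x_at at 11.23 to 12.07 and 6.66 to 11.76. The groups overlapped in every member. The differences were 0.56 for Vpreb1, 0.76 and 0.74 for the Igll1 probe sets and 0.51 for Vpreb3, none called (lowest adjusted p = 0.914 by limma), and array 122 was in the group without pIpC. Without array 122 they were 0.22 for Vpreb1, 0.34 and 0.48 for the Igll1 probe sets and 0.09 for Vpreb3, none called. Of all probe sets 1 was called by limma (0.00442%), and 1206 had an unadjusted p under 0.05. Without array 122 limma called 0, and 1266 had an unadjusted p under 0.05.

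Among the leukemic arrays Igll1 1420176_x_at and Vpreb1 varied together. Over the 16 arrays r was 0.99 and rho 0.90, with permutation p of 1e-05 and 2e-05 (adjusted over 6 pairs 6e-05 and 0.00012). Without array 122 r was 0.93 (n = 15, permutation p = 1e-05, adjusted p = 6e-05), without the 2 arrays farthest from the median, 122 and 153, it was 0.92, and within run 1 without array 122 it was 0.95 (n = 11). The r of the other pairs fell further without array 122. Vpreb1 with Vpreb3 had r = 0.96 over the 16 arrays and 0.16 without array 122 (permutation p = 0.558), and Igll1 1420176_x_at with Vpreb3 had 0.95 and 0.24 (permutation p = 0.40). The Igll1 probe sets had r = 0.84 over the 16 arrays and 0.50 without array 122 (permutation p = 0.0552, adjusted p = 0.166). Igll1 1420177_at with Vpreb1 went from 0.83 to 0.45, and with Vpreb3 from 0.77 to -0.11. Within run 1 without array 122 (n = 11) r was 0.67 for the Igll1 probe sets and 0.58 for Igll1 1420177_at with Vpreb1. There it was 0.23 for Igll1 1420177_at, 0.10 for Igll1 1420176_x_at and 0.07 for Vpreb1, each with Vpreb3. A permutation p of 1e-05 is the smallest that 100000 resamples can give.

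**Figure D4:**
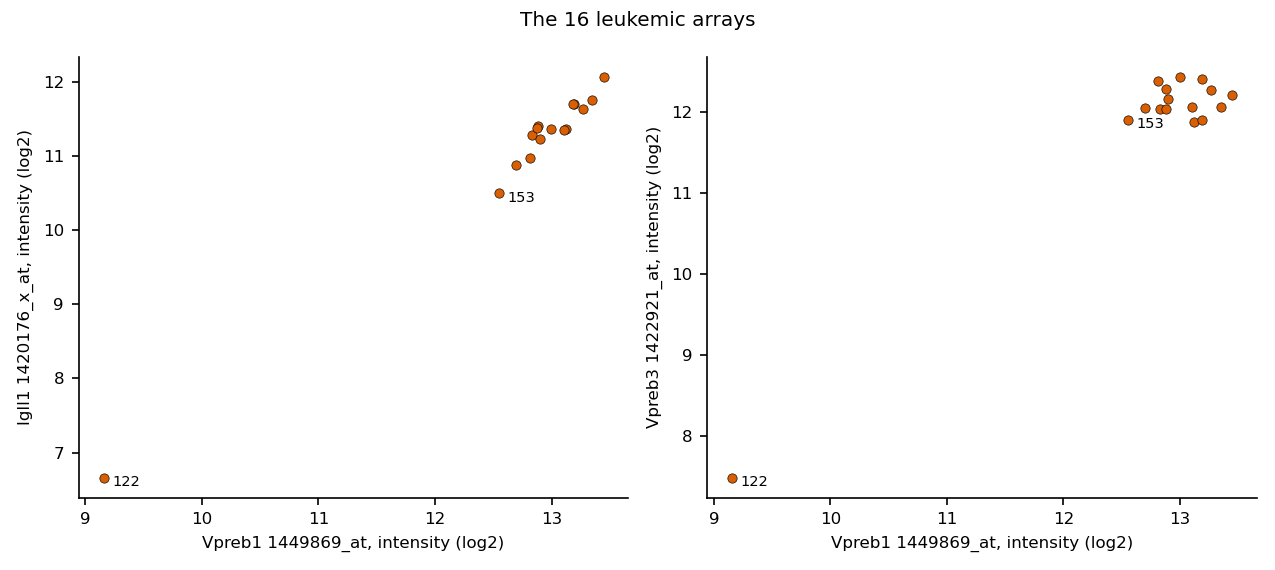
Log2 intensity of Vpreb1 (x axis) against Igll1 1420176_x_at (left) and Vpreb3 (right) on the 16 leukemic arrays, with arrays 122 and 153 labelled. Array 122 lies apart in both panels, and among the other 15 arrays Igll1 1420176_x_at goes up with Vpreb1 (r = 0.93) while Vpreb3 spans 11.87 to 12.43.

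The partners of the surrogate light chain in the pre-B-cell receptor, Ighm, Cd79a and Cd79b, took another course. From pro-B to pre-B Cd79b rose by 1.21 and Cd79a by 1.11, and Ighm differed by 0.17 and was not called, so that 2 of 3 rose by limma (17.3% of all genes rose and 15.5% fell, median 0.11). From pre-B to immature B Ighm rose by 0.64 and Cd79b by 0.42, and Cd79a differed by 0.69 without a call (10.8% of all genes rose and 8.63% fell, median -0.06). Between immature and mature B Ighm fell by 0.60 (1.9% of all genes rose and 3.2% fell, median 0.05). In the leukemic cells Cd79b fell by 0.79 against normal pre-B (8.55% of all genes rose and 7.56% fell, median -0.01), and 0 of 3 were called against pro-B (7.79% rose and 7.5% fell, median 0.13), where Cd79b was 0.58 higher and called without array 122. Of the ligand and folding genes, Lgals1 (galectin 1, a ligand of the pre-B-cell receptor) fell by 0.67 and the chaperone Hspa5 by 0.62 from pro-B to pre-B. From pre-B to immature B Lgals1 fell by 0.53 and Hspa5 rose by 0.44. None of the 3 genes was called from immature to mature B or between leukemic and normal pre-B (Hsp90b1 was called at -0.37 without array 122), and Hsp90b1 (-0.59) and Hspa5 (-0.45) were lower in leukemic than in pro-B cells.

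The counts of this list and the lists below stand beside these shares of all genes that rose and fell. They were 17.3% and 15.5% from pro-B to pre-B, 10.8% and 8.63% from pre-B to immature B, and 1.9% and 3.2% from immature to mature B. In leukemic cells they were 8.55% and 7.56% against pre-B, and 7.79% and 7.5% against pro-B. Of the 13 genes measured in the chain that carries pre-B-cell receptor signals, 5 rose and 2 fell from pro-B to pre-B (median 0.34). The 15.4% that fell was near the share of all genes. The kinases Syk and Blk rose by 1.33 and 1.30, and Fyn fell by 1.43. From pre-B to immature B 5 rose and 1 fell (median 0.37), with the inhibitory coreceptor Cd22 at 2.36, Plcg2 at 0.88 and Vav1 at 0.88. Between immature and mature B 2 rose and 1 fell (median 0.27), Pik3ap1 by -1.31. Against normal pre-B 4 of 13 fell and 0 rose in the leukemic cells (median -0.25): Blk fell by 2.93, the adaptor Blnk by 1.80, Syk by 1.71 and Pik3ap1 by 1.26. In the same comparison Vpreb1 was 1.04 higher. Against pro-B 2 fell and 0 rose (median -0.33), Fyn by -1.08 and Pik3ap1 by -0.90.

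Transcription factors known to act on these genes gave different counts at each step. From pro-B to pre-B 11 of 17 rose and 2 fell (median 0.47), while Vpreb1 differed by -1.0 without a call. Bach2, a repressor active at the pre-B checkpoint, rose by 1.48, Tcf3 by 1.19, and Irf8 fell by 2.0. Ebf1 and Pax5 each rose by 0.70. From pre-B to immature B 5 rose and 5 fell (median -0.11), with Pax5 at 1.15, Lef1 at -1.06 and Irf8 at 0.91, while Ebf1 differed by -0.10 and was not called. From immature to mature B 0 rose and 6 fell (median -0.38), led by Sox4 at -1.78, Ikzf1 at -0.89 and Myb at -0.81. In leukemic cells against normal pre-B 0 rose and 6 fell (median -0.27): Spib fell by 1.36, Irf4 by 1.10 and Bach2 by 1.0, while Ebf1 (-0.46) and Pax5 (-0.27) were not called. Without array 122 8 fell (8.31% of all genes fell), and Ebf1 (-0.21) and Pax5 (-0.20) were again not called. Against pro-B 1 rose and 2 fell (median 0.16), Sox4 by 0.49, Irf8 by -2.10 and Spib by -0.90. Without array 122 6 rose and 2 fell (11.8% of all genes rose and 9.63% fell), and Ebf1 (0.49) and Pax5 (0.51) were among those that rose.

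Other genes of the early B stages gave a mixed picture beside the members. From pro-B to pre-B 3 of 13 rose and 5 fell (median 0.21), with the progenitor receptors Flt3 and Kit falling by 3.85 and 2.72, Dntt changing by -1.97, and Rag1 rising by 1.71. From pre-B to immature B 10 fell and 0 rose (median -1.06): Rag2 by -3.94, Dntt by -3.42 and Rag1 by -3.40, in the same step in which Igll1 1420176_x_at and Vpreb1 fell. From immature to mature B 6 fell and 0 rose (median -0.96), the interleukin-7 receptor gene Il7r by -2.45. Leukemic cells had Erg 2.19 higher and Dntt (-2.84), Rag1 (-1.60) and Sox4 (-0.48) lower than normal pre-B (1 rose and 3 fell, median -0.28). Against pro-B Dntt was lower by -4.81 while Vpreb1 differed by 0.04 (1 rose and 1 fell, median -0.05, and 1 rose and 2 fell without array 122). With all arrays 7.69% of this list rose and 7.69% fell against pro-B, near the 7.79% and 7.5% of all genes.

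Genes of the later stages rose from pre-B to immature B cells, the step in which Igll1 1420176_x_at and Vpreb1 fell. Of 7 conventional light chain and mature B genes measured, 6 rose from pre-B to immature B (median 2.48), led by Ms4a1 (CD20) at 3.39, Fcer2a (CD23) at 3.30 and Cr2 at 2.54, and 4 rose from immature to mature B (median 1.58). The light chain constant genes had no probe set of their own. From pro-B to pre-B 2 rose and 1 fell (median 0.47), in leukemic cells against pre-B 2 fell (median -0.72), Ccr7 by -2.95 and Ms4a1 by -1.72, and against pro-B 1 rose (median -0.75). Without array 122 1 rose and 2 fell in both of these. Of 17 cell cycle genes 14 fell and 2 rose from pre-B to immature B (median -1.48), Ccnb2 by -2.25 and Bub1 by -2.20, while the cyclin Ccnd2 rose by 2.48. From pro-B to pre-B 1 rose and 3 fell (median 0.32), Myc by -2.49. In that step 5.88% of the cell cycle list rose and 17.6% fell, beside 17.3% and 15.5% of all genes. The share that fell was near that of all genes. Between immature and mature B 3 fell (median -0.79). In leukemic cells 2 rose and 3 fell against pre-B (median -0.35), Myc by 2.73 and Cdk6 by 1.72 upward, and 1 fell against pro-B (median 0.03). Against pre-B 11.8% of the cell cycle list rose and 17.6% fell, beside 8.55% and 7.56% of all genes.

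The genes whose pattern over the 23 normal arrays was most like each probe set were named by Pearson r among 5975 varying probe sets, as a description. Fads1, a fatty acid desaturase, was first for both Igll1 1420176_x_at (r = 0.96) and Vpreb1 (r = 0.96), followed by Bcat1, an enzyme of branched-chain amino acid breakdown (0.95 and 0.95), and the adhesion receptor Adgrg1 (0.94 and 0.94). Dntt (0.92) and Ide (0.92) came next for Igll1 1420176_x_at, and Iftap (0.92) and Epb41l4b (0.92) for Vpreb1. These likenesses did not all carry over to the 16 leukemic arrays, where Fads1 had r = -0.20 with Vpreb1 and Bcat1 0.95, and the latter was 0.14 without array 122. For Vpreb3 the most alike genes were Lrmp (0.97), Coq7 (0.96), Endou (0.95), Egfl6 (0.93) and Myl4 (0.93), and over the leukemic arrays without array 122 their r with Vpreb3 lay between 0.001 (Endou) and 0.47 (Myl4). Lrmp, a membrane protein of lymphoid cells, averaged 11.17 on pro-B, 11.99 on pre-B, 12.11 on immature B and 11.32 on mature B arrays. For Igll1 1420177_at they were Mcl1, a survival factor of the Bcl2 family (0.89), Ceacam1 (0.88), Btg1 (0.87), Gm12185 (0.87) and Crebrf (0.84), other genes than for 1420176_x_at.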

How the data were processed

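The values were deposited as 1 intensity per probe set and array on a linear scale, made by the authors with RMA (background correction, normalization and summary over probes) as named without a version in the submitters' processing notes. Whether all 39 arrays were normalized together is not given in the sources used here. Per the labels' protocols, 20 ng of RNA was amplified with the NuGen Ovation system. Array medians spanned 6.36 to 6.76 log2. Arrays have no read depth, and their number limits the precision.

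Values were taken to log2 with no offset. Of 22690 probe sets, 64 controls were left out, and all 22626 others were fitted with limma 3.58.1 in R 4.3.3 (lmFit, eBayes with an intensity trend) and adjusted by Benjamini-Hochberg over all of them, called under 0.05. The normal steps share 1 fit of 23 arrays, and leukemic cells were compared with each stage in a fit of the 2 groups. Differences between probe sets used exact permutation tests over arrays and correlations permutation tests (scipy 1.17.1). The fit was tested on simulated data. Gene names come from the platform annotation, in which 20380 probe sets have 1 symbol, 691 several and 1555 none. A list gene is represented by its brightest probe set, and the genes named are up to 3 called and 2 uncalled per list; others (Ebf1, Pax5, Rag1 and Pik3ap1 and Sox4 where they complete a count) were named after their values were seen. Members and lists were chosen with earlier results of these data known. No sequence other than RefSeq promoters was used.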

Additional observations from a re-analysis of the deposited data

How the results depend on the processing

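Alternatives tried were quantile normalization, a filter on the dimmest 40% of probe sets, 1 fit of all 39 arrays, the accession run as a covariate or either run alone, no intensity trend, a replicate block, no array 116, no pIpC arrays and each array left out. Fits of 2 stages only, leukemic results without array 122 and the average of immature B arrays 2 and 3 were added after seeing the data. The cause of the changes below was not tested, and the number of arrays limits the precision. Of the member results that answer a comparison, 489 values under alternatives kept their direction and their side of the threshold, 25 lost the call, 14 gained it and 8 changed sign.

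From pro-B to pre-B, Igll1 1420176_x_at (-1.21) was called with the run as a covariate (adjusted p = 0.0304) and with 2 stages (0.000499), and Vpreb1 (-1.0) with 2 stages. The shares of all probe sets called in these fits are not given. Leaving out arrays gave -1.32 to -1.12 for Igll1 1420176_x_at. In the fit of all 39 arrays the calls were lost for Vpreb3 at 1.01 (limma adjusted p = 0.0872), for Igll1 1420177_at from pre-B to immature B at 0.65 (0.301), for Vpreb3 from immature to mature B at -1.27 (0.363) and for Vpreb1 in leukemic against pre-B at 1.04 (0.0517). Igll1 1420177_at from pre-B to immature B was not called at 0.66 in run 1 or 0.64 in run 2, with 0.55 to 0.73 over arrays left out. Vpreb3 in that step was -0.0334 in run 2. From immature to mature B, leaving out arrays gave -1.58 to -1.04 for Vpreb3 and -0.18 to 0.31 for Igll1 1420177_at.

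Leukemic minus pre-B, Igll1 1420176_x_at was 1.20, Igll1 1420177_at -0.61 and Vpreb3 -0.29 in run 2, all called there. Vpreb1 was 1.14 in run 1 and 0.87 without the pIpC arrays, not called, and the shared probe set was 1.95 and 1.46, not called. Leaving out arrays gave 0.94 to 1.32, 0.98 to 1.28 and -0.61 to -0.28 for Igll1 1420176_x_at, Vpreb1 and Vpreb3. Leukemic minus pro-B, Igll1 1420176_x_at was 0.063 in run 2 and -0.25 to 0.11 over arrays left out, Vpreb1 -0.14 without the pIpC arrays and -0.0063 to 0.28 (-0.0052 without pro-B array 4), Vpreb3 0.30 to 0.73, and the shared probe set -0.16 without the pIpC arrays.

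Without array 122, Vpreb3 was called against immature B (-0.34) and mature B (0.93), and Igll1 1420177_at against mature B (-1.10). Of all probe sets 26.2% were called against immature B and 20.9% against mature B.

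The Igll1 probe sets shifted against each other by -1.29 and -1.43 (pro-B to pre-B, runs 1 and 2), by -3.58 and -2.77 (pre-B to immature B) and by 1.81 (leukemic minus pre-B, run 2), none called after adjustment of the exact permutation p. For the normal steps this test cannot give a p under 0.05 within a run, so the missing calls there decide nothing. Leukemic minus pre-B, Igll1 1420176_x_at less Vpreb1 was 0.0032 in run 1, 0.049 in run 2 and 0.034 without array 122, and Igll1 1420177_at less Vpreb3 was -0.011 after quantile normalization, -0.046 and -0.32 in runs 1 and 2 and -0.071 without array 122. Leukemic minus pro-B and without array 122, Vpreb1 less Vpreb3 (-0.45) and Igll1 1420177_at less Vpreb3 (-0.93) were called. Igll1 1420176_x_at less Vpreb3 was -0.29 from immature to mature B in run 2. The r of Igll1 1420177_at with Vpreb3 was -0.184 without its 2 farthest arrays and -0.110 without array 122.

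Probe sets called from pro-B to pre-B went from 6860 to 4236 with the dim filter, 4366 with all 39 arrays and 3477 and 3325 in the runs. From pre-B to immature B they went from 4082 to 2455 with all 39 arrays and 2027 in run 1. From immature to mature B they went from 1081 to 315, to 1719 with the run as a covariate, to 712 in run 2 and to 421 without mature B array 1. Leukemic minus pro-B they went from 3274 to 1386 with the dim filter, 645 and 1245 in the runs, 1775 without the pIpC arrays and 1490 without pro-B array 2, and leukemic minus pre-B from 3519 to 1786 in run 1.

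The replicate numbers did not pair the normal arrays: within a run, deviations of same-numbered arrays had a median r of 0.283 (lowest -0.414) and others 0.275. With the replicate block Igll1 1420176_x_at was -1.03 and -2.70, Vpreb1 -0.88 and -2.45 and Vpreb3 1.08 and -0.0094 in the first 2 steps, and 5108, 4292 and 918 probe sets were called in the 3 steps. The block changed no member call.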
